A study of Mus musculus with 4 samples.

Results

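The cytosolic ribosome is built from a large and a small subunit, each an RNA core carrying proteins that are, with few exceptions, encoded by genes named Rpl and Rps. The mRNAs of these proteins start with a stretch of pyrimidines, the 5′ terminal oligopyrimidine or TOP element, through which mTOR complex 1 (mTORC1) and the RNA-binding protein Larp1 control their translation. mTOR complex 2 (mTORC2), the complex that contains Rictor, is known to associate with ribosomes. A few ribosomal proteins have paralogues that are made mainly in one tissue, among them Rpl39l, the male germ cell relative of Rpl39, a small protein in the tunnel through which nascent chains leave the ribosome.

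The genes described here are those whose symbol begins with Rpl or Rps followed by a digit, or is Rplp0, Rplp1, Rplp2 or Rpsa, without the Rps6k kinases, genes containing bp1 in their name and pseudogenes. Of 18193 genes with a probe set of their own, 49 met this rule, each read by its brightest probe set. They comprised 20 large subunit genes, 21 small subunit genes and 2 genes of the acidic stalk, called the 43 core genes here, 3 tissue-restricted paralogues and 3 other paralogues. Of 77 core names written, 34 had no probe set named for that gene alone. For 27 of these 34, Rplp1, Rpl5 and Rpl10 among them, the gene was listed only on probe sets that also carry other symbols, and the other 7 were not analysed here.

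The 4 arrays were made from follicular T helper (TFH) cells sorted from the spleen at day 8 after infection with LCMV Armstrong, 2 of Rictor-null mice and 2 of mice called wildtype (WT). Rictor-null mice carried floxed Rictor alleles that were deleted by Cre under the Cd4 promoter, so that the deletion was not limited to TFH cells. The mice called WT in the study were their littermates with floxed Rictor alleles and without Cre. Mice of both sexes were infected as young adults, and the RNA of each array came from several mice pooled, whose number the study's sources give differently. The values are probe set intensities on a linear scale, scaled between arrays before deposit. Fold changes are differences of log2(intensity + 16), Rictor-null minus WT, which understate the change of dim probe sets. They were tested with limma over all 18193 genes, and a gene is called higher or lower at a Benjamini-Hochberg adjusted p under 0.05. With 2 arrays a group, limma drew each gene's replicate spread towards that of genes of like intensity. Standard errors and p-values rest on this moderated spread, and only in part on the gene's own 2 pools.

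Rictor itself was at intensities of 267 and 279 in Rictor-null cells, against 334 and 303 in WT cells, in its brightest probe set (log2 fold change -0.21, adjusted p = 0.0366 from limma). Which exons that probe set covers is not given, so it is no check of the deletion. The 8 TFH and CD4 T cell markers were all above the array medians of 19.98 to 20.40, and none of the marker genes was at 0. Of these 8, 6 were lower in Rictor-null cells, the cytokine gene Il21 and the receptor gene Cxcr5 having the smallest p, and their summed intensity was 8909.5 to 9203 in Rictor-null cells, against 10140 to 10677 in WT cells. All 13 mitosis genes, Nusap1 and Cdk1 among them, were higher, with sums of 3926 to 3953 in Rictor-null cells, against 2571 to 2642 in WT cells. Of 9 B and plasma cell markers, 3 were higher (Jchain, Cd79b and Pax5) and Xbp1 was lower. Their sums were 1302 to 1363 in Rictor-null cells, against 1149.8 to 1228 in WT cells. Jchain was at 378 and 353 in Rictor-null cells, against 126 and 113 in WT cells (log2 fold change 1.49). Of 9 myeloid markers, 3 were higher (Lyz2, Itgam and S100a8), with sums of 414 to 456 in Rictor-null cells, against 327 to 342 in WT cells. Lyz2 was at 113 and 102 in Rictor-null cells, against 58.1 and 54.7 in WT cells. The sums are governed by the brightest markers, Icos, Xbp1 and Cd68 in the TFH, B cell and myeloid lists, and hide larger changes of dimmer ones. Klre1 and Cd8b1 of 5 NK and CD8 markers were higher (sums of 205 to 233 in Rictor-null and 144 to 153 in WT cells), as were Slc4a1 and Alas2 of 4 erythroid markers (sums of 54.7 to 60.8 in Rictor-null and 42.7 to 43.2 in WT cells). The part of these changes in the results below was not tested. In pooled RNA, fewer cells of a type and less RNA per cell cannot be told apart, and scaling between arrays leaves only levels relative to the rest of the RNA.

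Most ribosomal protein genes moved by little, and those called were higher, with the exception of Rplp2. Of the 49 genes, 14 were higher and 1 was lower in Rictor-null than in WT TFH cells, while 34 were not called. Over all 18193 genes, 12.5% were called higher and 7.19% lower. Among the 43 core genes 10 were higher (23.3%) and 1 was lower (2.33%), and their median log2 fold change was 0.05, against 0.01 over all genes. Of the 6 paralogues, 4 were higher and none was lower.

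**Figure D1:**
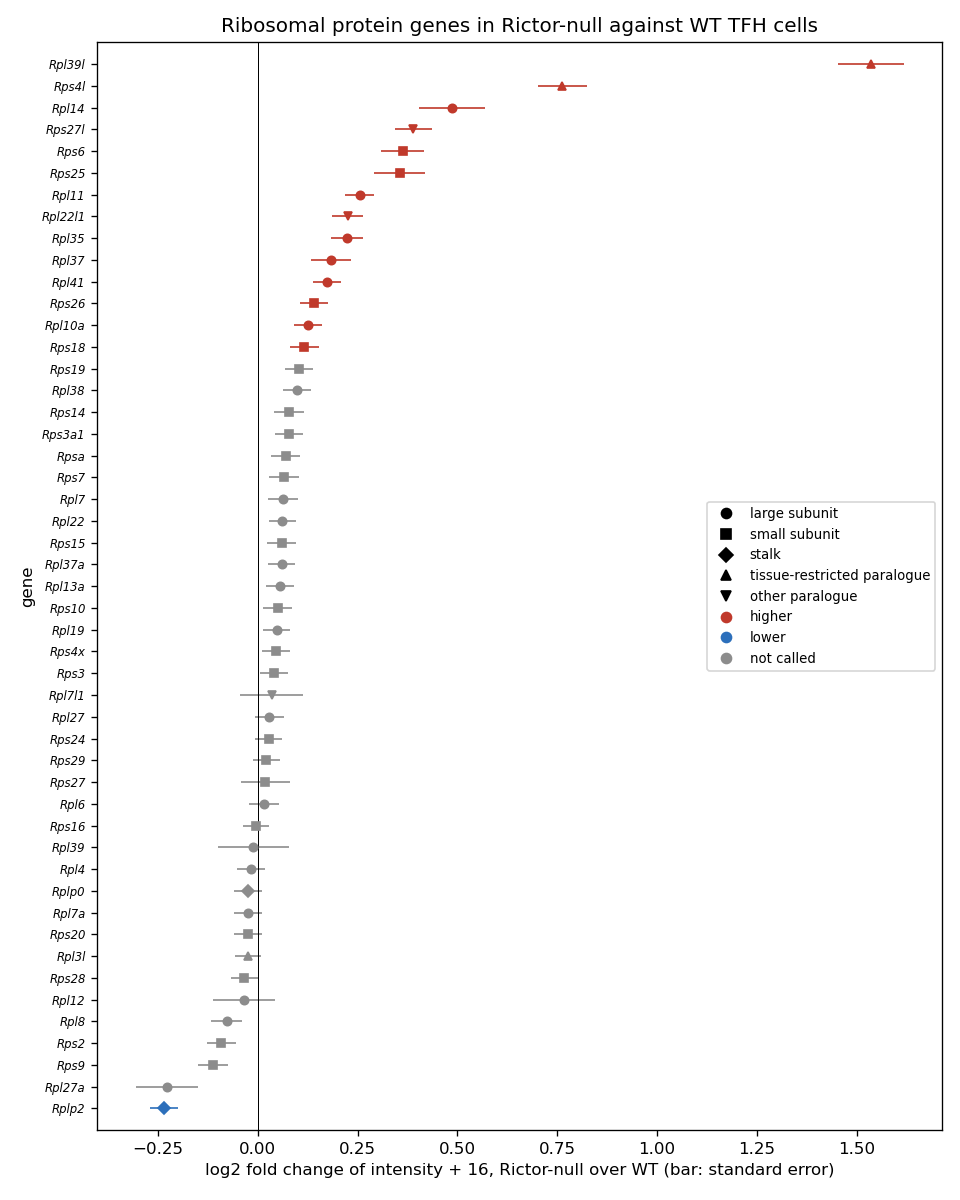
Log2 fold change of intensity + 16, Rictor-null over WT (x axis), of the 49 ribosomal protein genes (y axis), with the standard error of the limma fit as bars, markers for the class of the gene and colours for the call. Rpl39l and Rps4l lie to the right of all others, at 1.54 and 0.76, and Rplp2 is the single gene called lower, at -0.23.

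Rpl39l had the largest rise of the family, and the seventh largest of all genes. Its intensities were 208 and 179.7 in Rictor-null cells, against 55.5 and 56.9 in WT cells. Both Rictor-null arrays thus lay more than 3-fold above both WT arrays, and the 2 values of WT cells were nearly equal. The log2 fold change was 1.54 (standard error 0.08, adjusted p = 1.98e-07 from limma), and the ratio of linear means was 3.45. One probe set read this gene, and all 14 alternatives fitted with limma kept it higher (log2 fold changes of 1.44 to 1.76). The methods' t-test is not among these 14. After Benjamini-Hochberg adjustment it called no gene of the family, with Rpl39l at an adjusted p of 0.0725.

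Rpl39, the widely expressed relative whose place in the ribosome Rpl39l takes, was at 42.4 and 41.1 in Rictor-null cells, against 45.8 and 38.8 in WT cells. These values overlapped, and the log2 fold change was -0.01 (standard error 0.09). The change of Rpl39l exceeded that of Rpl39 by 1.55 on the log2 scale, and the per-array difference between the 2 genes was apart in the 2 groups. The Rpl39 probe set was dim for a gene of a core ribosomal protein, near the middle of all genes by intensity (percentile 52.7), so that how well it reads the mature mRNA is uncertain. Its other probe sets carry several symbols and name no gene here.

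Rps4l, a relative of the X-linked small subunit gene Rps4x, rose as well. Its intensities were 28.1 and 27.5 in Rictor-null cells, against 10.4 and 9.27 in WT cells, and the groups were well apart. The log2 fold change was 0.76 (standard error 0.06, adjusted p = 5.58e-06 from limma), and the ratio of linear means was 2.83. Both WT arrays read it below the array median, a range in which the level of a gene is poorly defined, and the pseudocount of 16 holds down the fold change, which was 1.41 with a pseudocount of 1. Rps4x was at 9729.9 and 9595 in Rictor-null cells, against 9329.5 and 9388 in WT cells, a log2 fold change of 0.05 that did not pass the test.

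The third tissue-restricted paralogue, the striated muscle gene Rpl3l, was at 5.50 and 5.05 in Rictor-null cells, against 5.71 and 5.58 in WT cells. These are among the lowest intensities of the table, and nothing can be said of a change there. Since Rpl39l is best known from male germ cells, markers of those cells were read too. Of 13 such genes, none was called by limma in either direction (at an unadjusted p under 0.05, 2 were lower, Acrv1 and Pgk2), and their summed intensity was 129.6 and 133 in Rictor-null cells, against 128 and 137 in WT cells. The brightest, the protamine gene Prm1, was at 41.2 and 44.8 in Rictor-null cells, against 35.9 and 41.1 in WT cells, and 12 of the 13 were under the median of every array.

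The other paralogues are widely expressed. Rps27l, a p53-induced relative of Rps27, was at 2386 and 2209 in Rictor-null cells, against 1778 and 1719 in WT cells. Its log2 fold change was 0.39 (standard error 0.05, adjusted p = 9.15e-05 from limma), and its 3 probe sets rose alike, by 0.39 to 0.45. Rps27 was at 203 and 202 in Rictor-null cells, against 201 and 199 in WT cells, which is within the error of the fit.

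Rpl22l1, the relative of Rpl22, a protein needed for the development of αβ T cells, was at 3562 and 3542 in Rictor-null cells, against 2976 and 3099 in WT cells. It rose by 0.22 on the log2 scale (standard error 0.04, adjusted p = 0.00147 from limma), and this call ended without WT replicate 1 (adjusted p = 0.0605). Rpl22 was at 8685 and 8789 in Rictor-null cells, against 8405 and 8332 in WT cells, a log2 fold change of 0.06 that did not pass, although its second probe set rose by 0.24. Rpl7l1, a nucleolar relative of Rpl7, was at 339.6 and 279 in Rictor-null cells, against 300.3 and 300.4 in WT cells. The 2 Rictor-null arrays fell on either side of WT, and its log2 fold change of 0.03 did not pass.

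**Figure D2:**
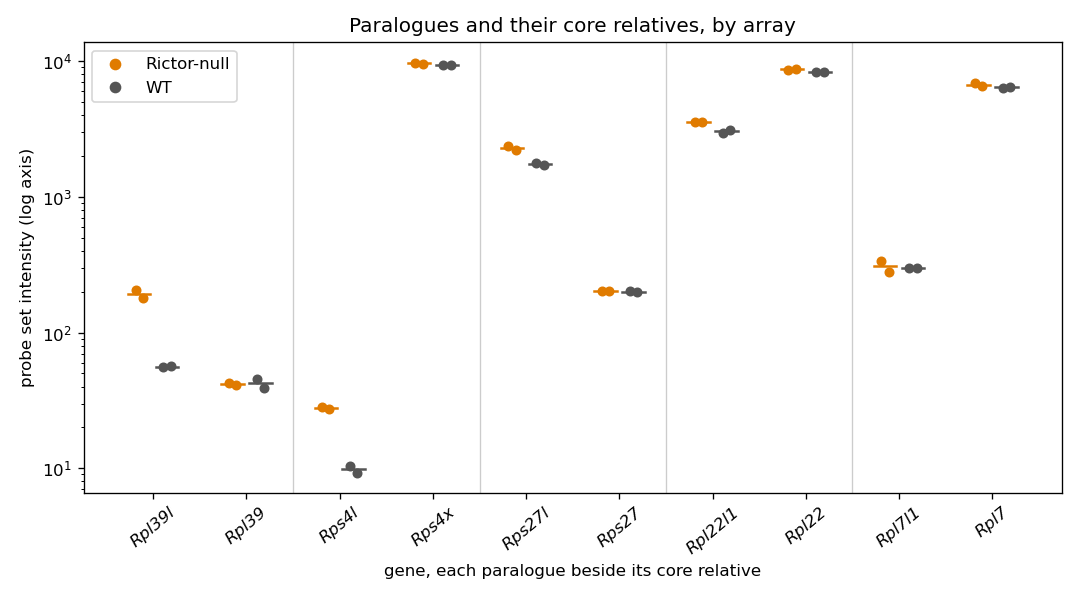
Probe set intensity (y axis, log axis) of the paralogues, each beside its core relative (x axis), in Rictor-null (orange) and WT (grey) TFH cells. Points show single arrays and bars their group means, and levels of different genes are not comparable since their probes differ. The groups do not overlap in Rpl39l, Rps4l, Rps27l and Rpl22l1, nor, by smaller distances, in Rps4x, Rps27, Rpl22 and Rpl7, while the points of Rpl39 and Rpl7l1 overlap.

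Among the 20 large subunit genes, 6 were higher and none was lower. Rpl14 had the largest rise of the core, at 187 and 158 in Rictor-null cells, against 122 and 114 in WT cells. Its log2 fold change was 0.49 (standard error 0.08, adjusted p = 0.00111 from limma), and without WT replicate 2 it did not pass (adjusted p = 0.0747). The probe set is dim for a core ribosomal protein, as it is for Rpl39.

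Rpl11 binds 5S rRNA together with Rpl5 and, when free of the ribosome, the p53 ligase Mdm2. It was at 7714 and 7482 in Rictor-null cells, against 6366 and 6357 in WT cells, so that the lower Rictor-null array was well above both WT arrays. The log2 fold change was 0.26 (standard error 0.04, adjusted p = 0.000293 from limma), which was the largest rise among the 34 core genes with an intensity over 5000, and the call held under all 14 alternatives. That limit of 5000 was chosen after the values were seen, at a gap in the intensities of the 49 genes.

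Rpl35, which sits near the exit of the tunnel for nascent chains, was at 7284 and 6833 in Rictor-null cells, against 6108 and 5974 in WT cells. It rose by 0.22 on the log2 scale (standard error 0.04, adjusted p = 0.0017 from limma). Its 6 probe sets all had positive fold changes, from 0.11 to 0.27, and 4 of them passed the test over all probe sets. Leaving out either WT array ended the call on the brightest one (adjusted p = 0.0525 and 0.0761).

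Rpl41, a very short basic peptide, was at 11437 and 11592 in Rictor-null cells, against 10274.5 and 10136 in WT cells, a log2 fold change of 0.17 (adjusted p = 0.00293 from limma). The call ended without WT replicate 2 (adjusted p = 0.065), with the mean of its 4 probe sets and without probe sets that share probes with other sequences. Rpl37 was at 701 and 696 in Rictor-null cells, against 628 and 599.5 in WT cells. Rpl10a was at 7863 and 7675 in Rictor-null cells, against 7115 and 7121 in WT cells. Their log2 fold changes were 0.18 and 0.13 (adjusted p = 0.0204 and 0.0252 from limma), and both calls ended without WT replicate 1, without WT replicate 2 and without Rictor-null replicate 1. That of Rpl37 also ended with all probe sets tested together. That of Rpl10a also ended under cyclic loess, with averaged probe sets and without the trend in mean signal.

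The other 14 large subunit genes did not pass, with log2 fold changes between -0.23 and 0.10. Rpl38, known for its part in the translation of Hox mRNAs, was at 10975 and 10786 in Rictor-null cells, against 10095 and 10233 in WT cells, just short of the threshold (adjusted p = 0.0669 from limma). Rpl13a, which also acts outside the ribosome in silencing inflammatory mRNAs, was at a log2 fold change of 0.06, Rpl19 and Rpl37a at 0.05 and 0.06, Rpl7 at 0.06 and Rpl27 at 0.03. Rpl6, Rpl4, Rpl7a and Rpl12 lay between -0.03 and 0.02 and Rpl8 at -0.08. The lowest was Rpl27a, at 469 and 579.7 in Rictor-null cells, against 615 and 612 in WT cells (log2 fold change -0.23, adjusted p = 0.0602 from limma). Without Rictor-null replicate 2, the higher of the 2, Rpl27a passed as lower (log2 fold change -0.38, adjusted p = 0.000557). Without Rictor-null replicate 1 its log2 fold change was -0.08 (adjusted p = 0.493), and with the mean of its probe sets -0.13 (adjusted p = 0.264).

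The stalk is the flexible arm on which elongation factors dock, and consists of Rplp0 carrying dimers of Rplp1 and Rplp2. Rplp2 was the single gene of the family called lower. Its intensities were 9530.2 and 9375 in Rictor-null cells, against 11279.5 and 10963 in WT cells, and both Rictor-null arrays lay below both WT arrays. The log2 fold change was -0.23 (standard error 0.04, adjusted p = 0.000448 from limma), and the call held under all 14 alternatives (adjusted p of 2.53e-05 to 0.0356). Rplp0, which anchors the stalk and is often used as a reference gene, was at 9211 and 9148 in Rictor-null cells, against 9427 and 9233 in WT cells, a log2 fold change of -0.02 that did not pass. Both stalk genes read here were below WT, unlike most of the family, though only Rplp2 by more than its error.

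Among the 21 small subunit genes, 4 were higher and none was lower. Rps6 is the substrate of the S6 kinases whose phosphorylated form serves as a readout of mTORC1 activity. Its mRNA was at 534 and 521 in Rictor-null cells, against 398 and 416 in WT cells. The log2 fold change was 0.36 (standard error 0.05, adjusted p = 0.000377 from limma). The call held under all 14 alternatives, but with the mean of its 2 probe sets, of which the second was dim and at -0.01, the value was 0.18 (adjusted p = 0.0482). Rps25, which some viral and cellular mRNAs need for initiation without a cap, was at 598 and 549 in Rictor-null cells, against 419.8 and 469.9 in WT cells. Its log2 fold change was also 0.36 (standard error 0.06, adjusted p = 0.00166 from limma), and without WT replicate 1 it did not pass (adjusted p = 0.0838). These 2 probe sets, like that of Rpl14, were well below the intensity of most core genes.

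Rps26, a gene mutated in Diamond-Blackfan anaemia in humans, was at 7070.0 and 7033 in Rictor-null cells, against 6361 and 6426 in WT cells. Its log2 fold change was 0.14 (adjusted p = 0.0135 from limma). The call ended when either WT array was left out, and in a fit without the trend in mean signal. Rps18 was at 8702 and 8706 in Rictor-null cells, against 8170.4 and 7887 in WT cells (log2 fold change 0.12, adjusted p = 0.0387 from limma), and its call did not hold under 8 of the 14 alternatives. Rps19, the gene most often mutated in that anaemia, was at 7221 and 7125 in Rictor-null cells, against 6693 and 6652 in WT cells (adjusted p = 0.0601 from limma). Both Rictor-null arrays of Rps19 were above both WT arrays, yet the difference stayed short of the threshold.

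The other 16 small subunit genes, without Rps19, had log2 fold changes from -0.11 to 0.08 and did not pass. Rpsa, which also serves as a laminin receptor, was at 0.07, Rps3a1 and Rps14 at 0.08, Rps7 at 0.07, Rps15 at 0.06, Rps10 and Rps4x at 0.05. Rps3, a protein of the mRNA entry site, was at 0.04 in its brightest probe set and at 0.30 in a dim one that passed the test. Rps28 and Rps20 were at -0.03 and -0.02, and Rps29 at 0.02. Other probe sets above 5000 had the other sign in Rps10 (-0.07, -0.04 and -0.002) and Rps15 (-0.03). The same held in Rps29 (-0.06 and -0.08) and Rps28 (0.03 and 0.02), and none of these passed the test over all probe sets. Rps24 was at 0.03, but at 0.30 without _s_at and _x_at probe sets, when a dim probe set represented it and passed (adjusted p = 0.0255 from limma). Rps9 and Rps2 had the lowest values, -0.11 and -0.09, and Rps2 passed as lower in 2 alternatives. Rps9 passed as lower in 6 of 14 alternatives, the 3 scalings between arrays among them, with -0.14 under quantile normalization (adjusted p = 0.012 from limma), while a dim probe set of Rps9 without shared probes was at 0.19 (adjusted p = 0.189). Rps16 was read only by a probe set at 5.47 to 5.82, where no change could be seen. Of the 34 genes of the family that were not called, 7 passed in at least 1 alternative: Rpl22, Rpl38, Rps19 and Rps24 as higher, Rpl27a, Rps2 and Rps9 as lower.

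**Figure D3:**
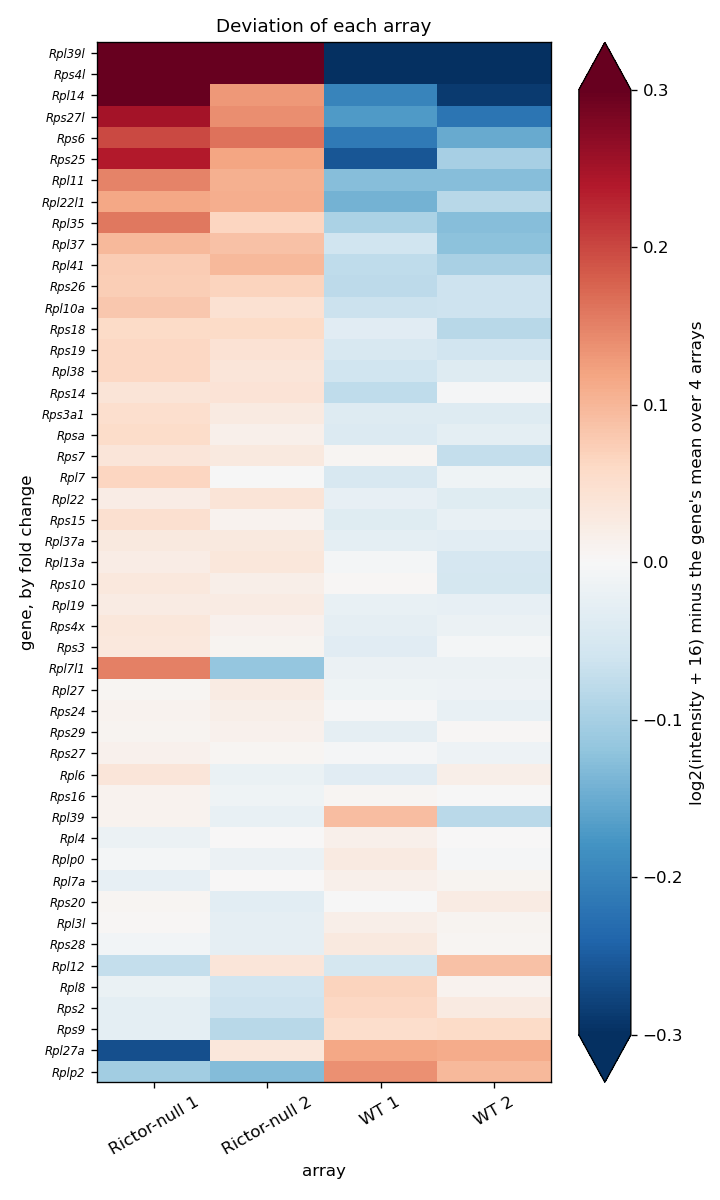
Deviation of log2(intensity + 16) from the gene's mean over the 4 arrays (colour, red above and blue below the mean, saturating at 0.3), for the 49 genes ordered by fold change (rows), in the 2 Rictor-null and the 2 WT arrays (columns). The upper rows are red in both Rictor-null arrays and blue in both WT arrays, and the rows of Rplp2, Rps9, Rps2 and Rpl8 show the reverse.

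The shift was small but alike in both arrays of a group. The median deviation of the 43 core genes from their means was 0.031 and 0.024 in the Rictor-null arrays, against -0.028 and -0.023 in the WT arrays, while over all genes it lay between -0.006 and 0.008. In 29 core genes both Rictor-null arrays were above both WT arrays (67.4%, against 30.6% of all genes), in 8 both were below (18.6%, against 24.9% of all genes), and in 6 the groups overlapped. The core genes share arrays and scaling, so that these counts describe the arrays and are no test of the family. The median shift of the core held its sign under the other scalings, with 0.04 after median centring, 0.03 after quantile normalization and 0.03 after cyclic loess.

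Most core genes were read near the top of the intensity range, but 9 were at mean intensities of 5.68 to 656. Of these 9, 4 were called higher. Of 43 core genes, 34 were among the brightest 1% of all genes, at mean intensities from 5292 to 12434. In these 34 genes the median log2 fold change was 0.05, with 6 higher (17.6%) and 1 lower (2.94%). Outside the family, 43 genes lay above the same limit of 5000, with a median of -0.05, 11 of them higher and 11 lower (25.6% each). The share called higher was thus not larger in the bright core genes than in other bright genes. A probe set above 5000 and others between 1000 and 5000 were both present for 8 genes. Rpl27 was at 0.03 in its brightest probe set and at 0.17 and 0.23 in the dimmer ones, and Rpl22 at 0.06 and 0.24. The signed fold change was on average higher in the dimmer probe sets in 6 of the 8 genes, and lower in Rps10 and Rps9. In Rps20 and Rps9 the difference (0.007 and -0.02) was smaller than the standard error of the brightest probe set. In Rps24 the difference of 0.04 was near the standard errors of its probe sets in this range (0.03 to 0.04). Whether the bright probe sets were near saturation was not tested.

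The 49 genes had 105 probe sets of their own. Of these, 26 were higher and 1 was lower when all 45037 probe sets were tested together, where 6.38% of all probe sets were called higher and 4.63% lower. Of the 24 genes with more than 1 probe set, 17 had fold changes of 1 sign throughout and 7 had both signs. The probe set called lower was that of Rplp2, its only one, so that no gene could hold calls in both directions. A further 110 probe sets carried several symbols with a ribosomal protein gene among them, and they enter no gene value here. Their median log2 fold change was 0.05, with 19 higher and 1 lower, near the 0.06 of the probe sets with 1 symbol. Of the 49 probe sets used for the genes, 13 had identifiers ending in _s_at or _x_at, which mark probes shared with other transcripts or sequences. Ribosomal protein genes have many processed pseudogenes, so that signal from a near-identical copy cannot be separated from that of the gene.

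**Figure D4:**
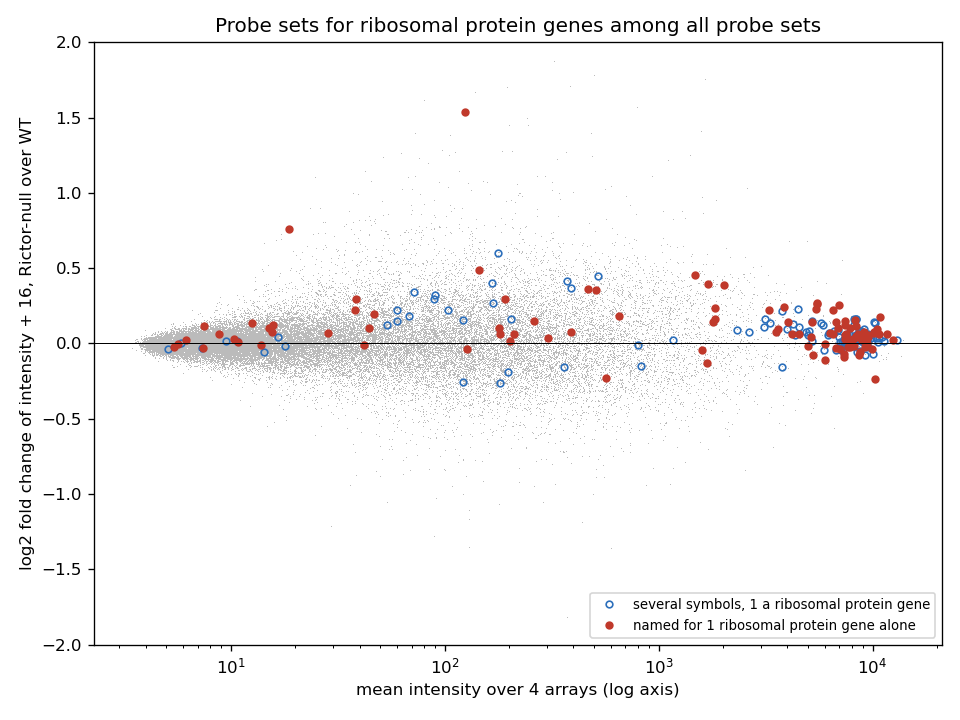
Log2 fold change of intensity + 16, Rictor-null over WT (y axis), against the mean intensity over the 4 arrays (x axis, log axis), for all probe sets (grey), the 105 probe sets named for 1 ribosomal protein gene alone (red) and the 110 with several symbols (blue rings). Of all probe sets, 2 lie outside the plotted range. Most ribosomal probe sets crowd at the bright end close to 0, and that of Rpl39l stands apart at 1.54.

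Other genes that work with these proteins moved in both directions. Fau, which encodes a small subunit protein fused to a ubiquitin-like part, was at 9147 and 8997 in Rictor-null cells, against 8759 and 8648 in WT cells, a log2 fold change of 0.06 that did not pass. Of 15 measured genes whose mRNAs also begin with a TOP element, 4 were higher, 4 were lower and 7 did not pass. The shares were 26.7% higher and 26.7% lower, against 12.5% and 7.19% of all genes. Their median log2 fold change was -0.01. Npm1, the nucleolar chaperone nucleophosmin, rose by 0.40 and the initiation factor gene Eif3e by 0.19. The poly(A)-binding protein gene Pabpc1 was lower, at 5513 and 5719 in Rictor-null cells, against 7204 and 7160.5 in WT cells (log2 fold change -0.35), and so was Eif3f (log2 fold change -0.38). These 15 genes thus held calls in both directions, and translation was not measured.

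Of 11 measured genes that control TOP mRNAs, none was higher (against 12.5% of all genes) and 2 were lower (18.2%, against 7.19%). Larp1, which binds the TOP element and holds such mRNAs back, was at 391 and 368 in Rictor-null cells, against 433 and 444 in WT cells (log2 fold change -0.20, adjusted p = 0.0221 from limma). Eif4ebp2, a repressor of cap-dependent initiation, was at -0.26. Rptor, the subunit that defines mTORC1, was at -0.17 and Mtor at -0.11, and neither passed. Of 6 dedicated chaperones of single ribosomal proteins, with partners known in part from yeast, 3 were higher. Tsr2, the escort of Rps26, rose by 0.34, Pdcd2, the chaperone of Rps2, by 0.25 and Bccip, which delivers Rpl23, by 0.17. Heatr3, Grwd1 and Ltv1, which serve Rpl5, Rpl3 and Rps3, were at -0.13, 0.03 and 0.19 and did not pass.

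Sequences around annotated start sites were taken from RefSeq (GRCm38.p6), to show pyrimidine runs in genes that moved and in genes that did not. They reach from 40 bases before the first transcribed base to 20 bases from it onwards. Capitals mark the longest unbroken run of C and T that reaches within 5 bases of the start, on either side. A TOP element lies in the mRNA, so that a run wholly before the annotated start is not one by this annotation. Rpl39l, Rpl14, Rps6, Rpl35 and Rpl11 rose, Rplp2 fell, and Rpl39 and Rpl7a did not pass.
Rpl39l (chr16:10170188-10170247, plus strand): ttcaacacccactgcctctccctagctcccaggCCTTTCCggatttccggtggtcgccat
Rpl39 (chrX:37085203-37085262, minus strand): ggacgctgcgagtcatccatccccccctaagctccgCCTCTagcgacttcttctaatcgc
Rpl14 (chr9:120571477-120571536, plus strand): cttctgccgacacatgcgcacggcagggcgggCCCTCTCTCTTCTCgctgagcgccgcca
Rps6 (chr4:86857348-86857407, minus strand): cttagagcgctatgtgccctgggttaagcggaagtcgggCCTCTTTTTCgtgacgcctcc
Rpl35 (chr2:39005112-39005171, minus strand): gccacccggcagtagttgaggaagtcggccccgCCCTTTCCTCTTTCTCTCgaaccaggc
Rpl11 (chr4:136053374-136053433, minus strand): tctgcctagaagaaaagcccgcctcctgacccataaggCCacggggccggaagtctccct
Rplp2 (chr7:141447611-141447670, plus strand): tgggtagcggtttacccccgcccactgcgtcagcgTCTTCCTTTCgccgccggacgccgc
Rpl7a (chr2:26910767-26910826, plus strand): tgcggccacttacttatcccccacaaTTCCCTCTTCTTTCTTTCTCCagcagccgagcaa

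The run was 7 bases long in Rpl39l and 5 in Rpl39, the first ending directly before the annotated start and the second on it. It was 14 in Rpl14, 10 in Rps6, 18 in Rpl35, 10 in Rplp2 and 21 in Rpl7a, and only 2 in Rpl11. Annotated starts can lie some bases from the start used in a cell, and a short run says only that these letters are not within this window. Promoters were found for 43 of the 49 genes, 38 of them core. A run of 8 or more bases was present in 16 of these 38 (42.1%), against 11.4% of 27025 genes with a promoter in the table, each gene taken at the start site with its longest run. Among core genes called higher, 5 of 10 had such a run, against 11 of the other 28. Some of these runs lay wholly before the annotated start, as in Rpl4 and Rpl19, so that these are no counts of TOP elements. Long runs thus stood before genes that rose, before Rplp2, which fell, and before genes that did not pass.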

How the data were processed

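RNA of sorted TFH cells (2 Rictor-null and 2 WT arrays) was labelled and hybridised to 1-colour Affymetrix mouse arrays. The authors deposited an intensity on a linear scale for each of 45037 probe sets. MAS5 and RMA stand in the submitters' processing notes, with neither order nor version. Medians of 20.0 to 20.4 show that arrays were scaled before deposit. Replicates correlated at 0.998 in both groups (Pearson's r across probe sets), and 256 probe sets in Rictor-null and 168 in WT arrays had identical values in both replicates.

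Genes were named from the platform annotation. Of the probe sets, 34945 had 1 symbol, 932 several and 9160 none there. Entrez numbers matched 34741 to RefSeq and changed 0 symbols. The brightest probe set named for a gene alone represented it. Values were taken to log2(intensity + 16) and fitted with limma 3.58.1 in R 4.3.3 (lmFit, then eBayes with trend), p-values being adjusted by Benjamini-Hochberg over 18193 genes, and the steps were tested on simulated data. No filter on low values was used. The alternatives were median centring, quantile and cyclic loess normalization, a pseudocount of 1, a filter on dim probe sets, averaging a gene's probe sets, dropping _s_at and _x_at probe sets, testing all probe sets together, no trend, a replicate block, omission of each array, and the methods' t-test. Where 14 alternatives are counted, the t-test is left out.

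The genes named are the paralogues with their core relatives, the 10 core genes with the largest rise and the 10 with the largest fall, genes of known roles, and from each other list the 2 with the smallest p and those called where 5 or fewer were; the other genes of the 49 were added. Members and lists were chosen with earlier results of these data known.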

Additional observations from a re-analysis of the deposited data

How the results depend on the processing

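Of the 15 called ribosomal protein genes, 6 (Rpl39l, Rps4l, Rps27l, Rpl11, Rps6 and Rplp2) were called the same way in every limma alternative that measured them; Rps4l was not measured once dim probe sets were left out. Rpl39l, Rps4l, Rpl11 and Rplp2 have 1 probe set each. Averaging probe sets and dropping _s_at and _x_at probe sets could therefore not change their fold changes. No named gene reversed a call. With 14 higher and 1 lower in the main comparison, either WT array left out gave 7 higher, and leaving out each array in turn gave 7 to 13 higher and 1 to 2 lower. The count of lower genes was 3 with median centring, quantile normalization or cyclic loess, 4 without dim probe sets, and 2 with a pseudocount of 1. With the replicate block it was 2 as well. Whether same-numbered arrays are paired is not given. Their deviations correlated at -0.033 over all genes and at 0.096 over the core genes. With that block 14 genes were higher, as without it. The core median of 0.05 was 0.039 with median centring, 0.032 with quantile normalization, 0.0304 with cyclic loess, 0.061 with the mean of all probe sets, 0.0601 without _s_at and _x_at probe sets, and 0.041 to 0.053 with an array left out. The methods' t-test was run one-sided, on the side to which each gene moved. Its unadjusted calls are thus more lenient than a test of both sides at the same limit. This t-test gave 24 higher and 3 lower unadjusted, and 0 and 0 after Benjamini-Hochberg. Rpl39l was then at an adjusted p of 0.0725 by that test, with an unchanged log2 fold change of 1.54. Over all genes the counts of 2283 higher and 1308 lower became 930 to 2000 higher and 457 to 1048 lower with an array left out, 842 lower with the mean of all probe sets, 2231 lower by that t-test unadjusted, and 3 higher and 3 lower after adjustment. The causes of these shifts were not tested. The number of arrays, 2 a group, limits the precision.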
